A study of Mus musculus with 4 samples.

Results

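Rag1, Rag2 and Dntt encode the enzymes that cut and diversify antigen receptor genes, and their transcripts were followed in 4 single-cell libraries of mouse bone marrow. They are 3 of the 32285 genes counted and were taken by name, not by any measured value. All 4 libraries held donor cells (CD45.2+Lin-Sca1+Kit+, the LSK gate that is enriched for blood stem cells and early progenitors) recovered 10 weeks after transplantation. There was 1 library for each genotype label: control, Mll3 deleted, Mll4 deleted and Mll3/4 deleted, where Mll3 and Mll4 are the histone methyltransferases encoded by Kmt2c and Kmt2d. They are called here the control, Mll3-label, Mll4-label and Mll3/4-label libraries. What drove the deletions, the strain, the recipients and the number of mice behind a library are not given in the sources used here. The study as a whole asked how MLL3 and MLL4 act on stem cell self-renewal and on myeloid and B-cell identity.

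RAG1 and RAG2 work as a complex that recognises signal sequences beside the V, D and J segments of antigen receptor genes and cuts the DNA there. RAG1 holds the catalytic site, and RAG2 is its essential partner and binds methylated histone H3. The cut ends are closed by the non-homologous end-joining proteins, and terminal deoxynucleotidyl transferase, the product of Dntt, adds bases to them without a template. In bone marrow, Dntt is known from lymphoid-primed progenitors onward, and Rag1 and Rag2 are known above all from pro-B and small pre-B cells.

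Rag1 and Rag2 are neighbours that are read towards each other, and Dntt lies elsewhere. On GRCm38 (GENCODE M21), Rag1 (ENSMUSG00000061311) spans chr2:101638282-101649501 on the minus strand, in 2 exons. Rag2 (ENSMUSG00000032864) spans chr2:101624718-101632529 on the plus strand, so that 5752 bp separate the facing ends of these genes and 24783 bp their start sites. Dntt (ENSMUSG00000025014) spans chr19:41029275-41059525 on the plus strand. The 250 bases before each start site of RefSeq are shown because the genes were detected together in these cells while their start regions share few of the letters searched for. The sequences are from RefSeq (GRCm38.p6), 5′ to 3′ on the strand of the gene, at chr2:101649533-101649782 (minus), chr2:101624462-101624711 (plus) and chr19:41029025-41029274 (plus). These start sites differ from those of GENCODE for Rag1 and Rag2. The Rag1 window lies directly before the start of the overlapping gene B230118H07Rik, which is 31 bp upstream of the GENCODE start of Rag1. Capitals in Rag1 mark, in order, an E-box of the type bound by E2A, an inverted CCAAT box and a match to the core letters of the Ikaros motif.
Rag1: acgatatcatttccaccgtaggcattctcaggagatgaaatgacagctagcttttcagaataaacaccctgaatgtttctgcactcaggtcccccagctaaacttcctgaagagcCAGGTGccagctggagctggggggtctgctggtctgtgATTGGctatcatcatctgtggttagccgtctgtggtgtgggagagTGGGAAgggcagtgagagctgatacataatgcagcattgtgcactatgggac
Rag2: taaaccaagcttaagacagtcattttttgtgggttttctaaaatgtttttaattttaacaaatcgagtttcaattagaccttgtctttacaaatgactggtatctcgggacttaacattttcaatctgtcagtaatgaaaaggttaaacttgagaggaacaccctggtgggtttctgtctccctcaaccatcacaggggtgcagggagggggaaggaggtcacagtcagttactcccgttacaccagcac
Dntt: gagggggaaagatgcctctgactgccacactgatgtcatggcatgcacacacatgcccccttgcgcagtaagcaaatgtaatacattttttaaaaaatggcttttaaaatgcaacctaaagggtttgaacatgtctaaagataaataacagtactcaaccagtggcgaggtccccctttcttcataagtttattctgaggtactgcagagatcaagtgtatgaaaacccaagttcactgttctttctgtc

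All motifs were searched on both strands in these 250 bases and in the same window of 32851 promoters. The capitals in Rag1 are CAGGTG at -135 to -130 from the RefSeq start site, ATTGG at -97 to -93, which reads as the CCAAT box on the other strand, and TGGGAA at -52 to -47. These letters occur in 17.2%, 33.9% and 21.6% of all promoters and in neither of the other members. The general E-box, CANNTG, which contains the first of them, matched 3 times in Rag1, once in Rag2 and 3 times in Dntt, and is present in 66.2% of promoters. The ETS core GGAAGT matched in Rag1 alone and in 19.7% of promoters. For MYB, AACNG matched in Rag2 and in Dntt, 2 times each, and in 74.2% of promoters. None of the members had the TATA box letters TATAAA (12.4% of promoters), the FOXO letters GTAAACA (3.17%), or the EBF letters, which are TCCC and GGGA with any 2 bases between (0.779%). The GC content was 50.8% for Rag1, 41.2% for Rag2 and 41.6% for Dntt. A match describes letters in this window and shows no binding.

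Cells were kept if at least 1000 genes were counted and mitochondrial genes took up to 10% of the unique molecular identifiers (UMIs, 1 per captured transcript). This left 7274, 6101, 4793 and 4748 cells in the control, Mll3-, Mll4- and Mll3/4-label libraries. Their median UMIs per cell were 14454, 15381, 21400 and 8920. A cell was called B-lineage when Cd79a (a B-cell receptor signalling chain) and Vpreb1 (a surrogate light chain of the pre-B receptor) together had at least 3 UMIs. That rule found 52 cells (0.715%) in the control, 227 (3.72%) in the Mll3-label, 136 (2.84%) in the Mll4-label and 4722 (99.5%) in the Mll3/4-label library. The libraries shared few barcodes, with 61 present in more than 1. The deletion labels could not be settled from expression, since a 3′ tag may lie outside a deleted part. Kmt2d was at 24.6, 21.6, 22.6 and 25.4 CPM (counts per 1000000 UMIs of the same cells) over all cells in the same order, and Kmt2c at 68.9, 35.3, 61.3 and 42.3. Among B-lineage cells alone Kmt2c was at 40.4, 17.4, 48.1 and 42.5, so that it was lower than the control in the Mll3-label library and not in the Mll3/4-label one. The Vpreb1-positive B-lineage cells described below had it at 46.7, 17.6, 39.3 and 42.4. With 1 library per genotype the spread between mice is unknown. No test was made, and every interval below is a 95% interval for counting error only. UMIs can come from cells with more RNA or from more cells of a type, and over all cells these cannot be told apart.

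Over all cells, the members stood far higher in the Mll3/4-label library than in the other libraries. Rag1 was at 0.746 CPM (89 UMIs; 0.599 to 0.918) in the control, 6.28 (665 UMIs; 5.81 to 6.78) in the Mll3-label, 0.679 (82 UMIs; 0.540 to 0.843) in the Mll4-label and 399 (20276 UMIs; 394 to 405) in the Mll3/4-label library. The control and the Mll4-label library overlapped in their intervals, and the other pair stood above them. Rag2 was at 1.47 (1.26 to 1.70), 3.83 (3.47 to 4.23), 1.03 (0.855 to 1.23) and 147 (144 to 150) CPM in the same order, with the Mll4-label library lowest and its interval below that of the control. Dntt was at 106, 178, 42.3 and 1254 CPM, from 12643, 18844, 5109 and 63683 UMIs. Every pair of libraries was separated for Dntt, with the Mll4-label library again lowest.

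As log2 ratios to the control after adding 0.5 UMIs, the Mll3/4-label library was at 9.06 for Rag1 (8.76 to 9.38, a 532-fold difference), 6.64 for Rag2 (6.43 to 6.87) and 3.56 for Dntt (3.54 to 3.59). All 3 members were beyond 2-fold there, beside 9.23% of 6683 genes at 20 CPM or more that were 2-fold higher and 10.9% that were 2-fold lower. Among those genes, 41 had a higher ratio than Rag1, 87 a higher one than Rag2 and 181 a higher one than Dntt. Rag1 and Rag2, at 0.746 and 1.47 CPM in the control, entered only through the Mll3/4-label side, where they are high. Their count and ranks among these genes therefore carry no weight of their own. Dntt reached 20 CPM on both sides. In the Mll3-label library the ratios were 3.07 for Rag1 (2.75 to 3.41), 1.38 for Rag2 (1.13 to 1.65) and 0.75 for Dntt (0.72 to 0.78). There 2 of 3 members were beyond 2-fold, and 0.838% of 6322 genes were higher and 0.459% lower. Neither Rag gene reached 20 CPM in that comparison, so they are not among the 6322. In the Mll4-label library the ratios were -0.13 for Rag1 (-0.59 to 0.31), -0.51 for Rag2 (-0.86 to -0.17) and -1.32 for Dntt (-1.37 to -1.28). Dntt was the member beyond 2-fold, where 6.88% of 6541 genes were higher and 3.82% lower.

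The share of each member's transcripts that came from B-lineage cells differed between libraries and between members. B-lineage cells held 62.9% of the Rag1 UMIs in the control, 78.8% in the Mll3-label, 80.5% in the Mll4-label and 99.985% in the Mll3/4-label library. For Rag2 the shares were 18.3%, 67.7%, 32.3% and 99.9%, and for Dntt 5.26%, 34.5%, 8.87% and 99.9%. Dntt was thus mostly counted outside the B-lineage cells in every library but the Mll3/4-label one, and Rag2 outside them in the control and the Mll4-label library.

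Within B-lineage cells, Rag1 was at 47.1 CPM (56 UMIs; 35.6 to 61.2) in the control, 90.1 (524 UMIs; 82.6 to 98.2) in the Mll3-label, 15.9 (66 UMIs; 12.3 to 20.3) in the Mll4-label and 404 (20273 UMIs; 399 to 410) in the Mll3/4-label library. Rag2 was at 26.9, 47.3, 9.66 and 149 CPM, from 32, 275, 40 and 7468 UMIs. Dntt was at 559, 1119, 109 and 1269, from 665, 6509, 453 and 63646 UMIs. All 3 members had the same order of libraries, from the Mll4-label at the bottom to the Mll3/4-label at the top. They were higher in B-lineage cells than in the other cells of each library, by log2 ratios of 7.39, 6.0, 6.83 and 6.19 for Rag1, 4.49, 5.17, 3.75 and 4.09 for Rag2 and 2.47, 3.18, 1.45 and 4.42 for Dntt. In that comparison 4.35% of 6256 genes were 2-fold higher in the control, 5.26% of 6521 in the Mll3-label, 4.08% of 6250 in the Mll4-label and 10.7% of 6711 in the Mll3/4-label library. Both Rag genes entered it through the B-lineage side alone, and in the Mll4-label library they were below the minimum level on both sides.

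The B-lineage rule gathered cells of different maturity, which touches these levels. At least 100 UMIs of Jchain, a gene of antibody-secreting cells, were found in 30 of the 52 control, 31 of the 227 Mll3-label, 115 of the 136 Mll4-label and 3 of the 4722 Mll3/4-label B-lineage cells. Igkc, the kappa light chain, made up 18.6%, 6.90%, 20.7% and 0.0569% of all B-lineage UMIs. The Jchain-high cells held 0, 1, 0 and 0 UMIs of Rag1 and none of Rag2, and Dntt had 0, 59, 3 and 0. B-lineage cells with a Vpreb1 UMI numbered 22, 184, 17 and 4705, and the levels are therefore also given for them alone. Those without one had 0 UMIs of any member in the control, against which the Vpreb1-positive control cells were at least 26.4-fold higher for Rag1, 15.1-fold for Rag2 and 313-fold for Dntt, taking 3 UMIs as the floor of the group at 0.

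Among Vpreb1-positive B-lineage cells, Rag1 was at 114 CPM (85.8 to 148) for the control, 91.5 (83 to 101) in the Mll3-label, 77.3 (58.5 to 100) in the Mll4-label and 404 in the Mll3/4-label library. Rag2 was at 64.9 (44.4 to 91.7), 55.1, 42.0 and 149, and Dntt at 1349, 1207, 512 and 1271. For both Rag genes the first 3 libraries overlapped and the Mll3/4-label library stood apart. Its log2 ratio to the control was 1.82 for Rag1 (1.45 to 2.24), 1.18 for Rag2 (0.70 to 1.75) and -0.09 for Dntt (-0.20 to 0.03). Dntt was lowest in the Mll4-label library, at a log2 ratio of -1.40 to the control (-1.58 to -1.21), where its 17 cells also held granulocyte-monocyte markers. The 6 such markers summed to 10057 CPM in those cells, near the 10566 of the other cells of that library, and to 60.9 in the control, 435 in the Mll3-label and 3.08 in the Mll3/4-label Vpreb1-positive cells. Elane was counted in 14 of the 17 cells. The part of these transcripts in the Mll4-label values was not tested.

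**Figure D1:**
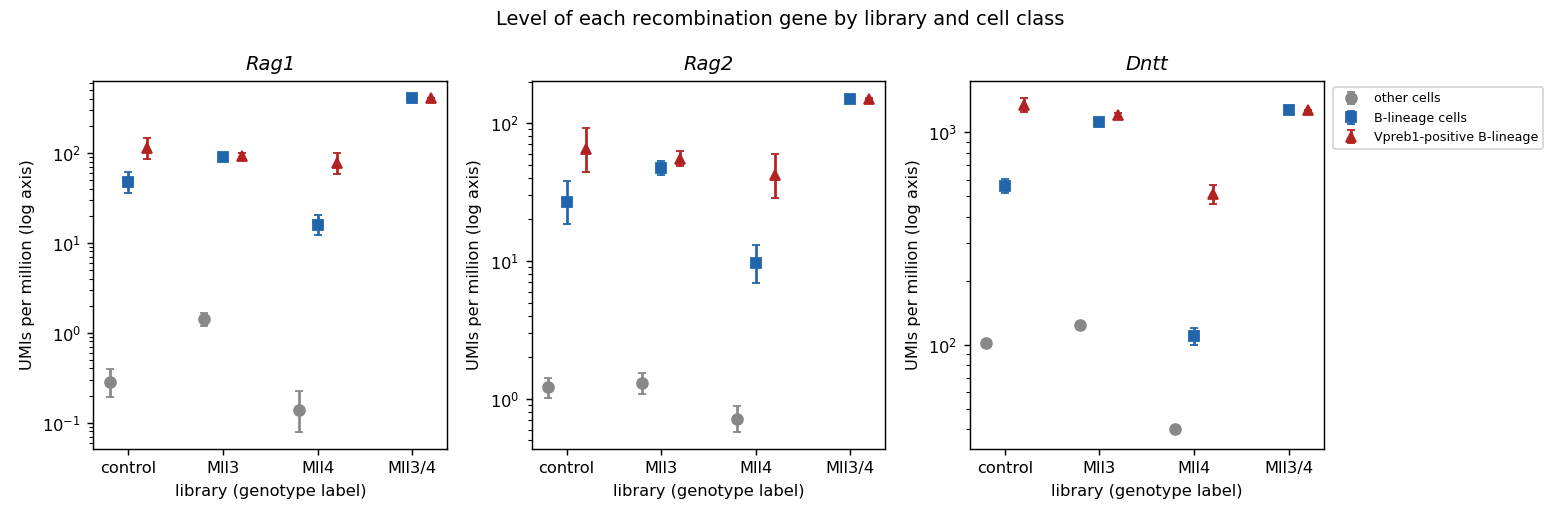
Level of Rag1, Rag2 and Dntt in CPM (log axis) in the 4 libraries, for other cells (grey circles), B-lineage cells (blue squares) and Vpreb1-positive B-lineage cells (red triangles), with exact Poisson 95% intervals for counting error. Other cells of the Mll3/4-label library are left out because it has 26 of them; among Vpreb1-positive cells the Mll3/4-label library is highest for Rag1, at 404, and for Rag2, at 149, but not for Dntt.

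The Mll3/4- and Mll3-label libraries, which held the most B-lineage cells, were compared directly. In B-lineage cells the log2 ratio was 2.16 for Rag1 (2.04 to 2.29, a 4.48-fold difference), 1.65 for Rag2 (1.48 to 1.83) and 0.18 for Dntt (0.14 to 0.22). Of 6306 genes, 13.1% were 2-fold higher and 9.23% 2-fold lower, 252 genes had a higher ratio than Rag1, and the median over all of them was 0.02. In Vpreb1-positive cells the ratios were 2.14 for Rag1 (2.01 to 2.29), 1.43 for Rag2 (1.26 to 1.62) and 0.08 for Dntt (0.04 to 0.12), where 11.3% of 6404 genes were higher and 12.3% lower. Rag1 and Rag2 were thus beyond 2-fold in both sets of cells, and Dntt in neither.

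Depth per cell moved with these ratios. B-lineage cells had a median of 8908.5 UMIs in the Mll3/4-label and 24073 in the Mll3-label library. Vpreb1-positive cells of both libraries with 17540 to 29983 UMIs, the middle of the Mll3-label depths, were compared again (523 and 92 cells). Rag1 was at 200 against 88.0 CPM, a log2 ratio of 1.18 (0.97 to 1.40), and Rag2 at 103 against 50.4, a ratio of 1.02 (0.75 to 1.32). Dntt was at 865 against 1272 and so lower in the Mll3/4-label cells, by a log2 ratio of -0.56 (-0.62 to -0.50). Inside this window both Rag ratios were smaller and still above 0, and that of Dntt had the opposite sign. The medians inside it were 20446 and 23717 UMIs, so depth was brought closer but not made equal. Among division-marked cells of this window (425 and 90) the ratios were 1.05, 1.04 and -0.52.

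To compare the share of cells with a UMI, each cell was reduced at random to 3000 UMIs (thinning), and shallower cells, 14, 17, 134 and 33 in the 4 libraries, were set aside. Of these, 31 were B-lineage cells of the Mll3/4-label library. Rag1 was then detected in 7.69% of control, 21.6% of Mll3-label, 2.21% of Mll4-label and 63.9% of Mll3/4-label B-lineage cells, and before thinning in 28.8%, 55.1%, 8.82% and 87.5%. Rag2 was detected in 3.85%, 15.9%, 3.68% and 38.2% after thinning, and in 26.9%, 55.9%, 9.56% and 71.3% before. Dntt was detected in 38.5%, 78.9%, 9.56% and 90.5% after thinning, and in 42.3%, 87.7%, 13.2% and 98.9% before. In thinned Vpreb1-positive cells Rag1 was found in 18.2%, 23.4%, 11.8% and 63.9%, Rag2 in 9.09%, 19.0%, 17.6% and 38.2%, and Dntt in 90.9%, 89.7%, 64.7% and 90.5%. For Dntt the control, Mll3- and Mll3/4-label Vpreb1-positive cells thus lay between 89.7% and 90.9%, while for Rag1 the Mll3/4-label cells lay above the rest.

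Shares were also measured in cells of another lineage. Granulocyte-monocyte-marked cells (at least 10 UMIs of Elane, Prtn3 and Ctsg, not B-lineage) numbered 1918, 2288 and 2182 in the control, Mll3- and Mll4-label libraries. After thinning, Rag1 was found in 0.0522%, 0% and 0.0466% of them and Rag2 in 0.157%, 0.262% and 0.140%. These shares were low for both Rag genes. Before thinning, 26.9% of the Rag2-positive other cells of the control were marked in this way, against 26.6% of all its other cells. In the Mll3-label library the values were 9.89% and 39.0%, and in the Mll4-label library 42.6% and 46.9%. Before thinning, marked cells thus held Rag2 about as often as all other cells in the control and Mll4-label libraries. After thinning, Rag2 was found in 25 of 7208 control, 28 of 5857 Mll3-label and 8 of 4523 Mll4-label other cells. The thinned shares of marked cells were lower than these in each of these libraries, from few cells. Marked cells still held Rag2 and are no Rag2-free background. Dntt was found in 11.8%, 4.37% and 4.01% of them, beside 9.55%, 8.20% and 3.94% of all other cells. The marked cells are therefore no Dntt-free background either. Under a stricter mark of 100 UMIs, Dntt was counted without thinning in 11 of 99, 3 of 106 and 50 of 989 cells. Stem-marked cells (at least 3 UMIs of Hlf, Mecom, Fgd5 and Procr) had Dntt in 6.80%, 4.11% and 7.59%.

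**Figure D2:**
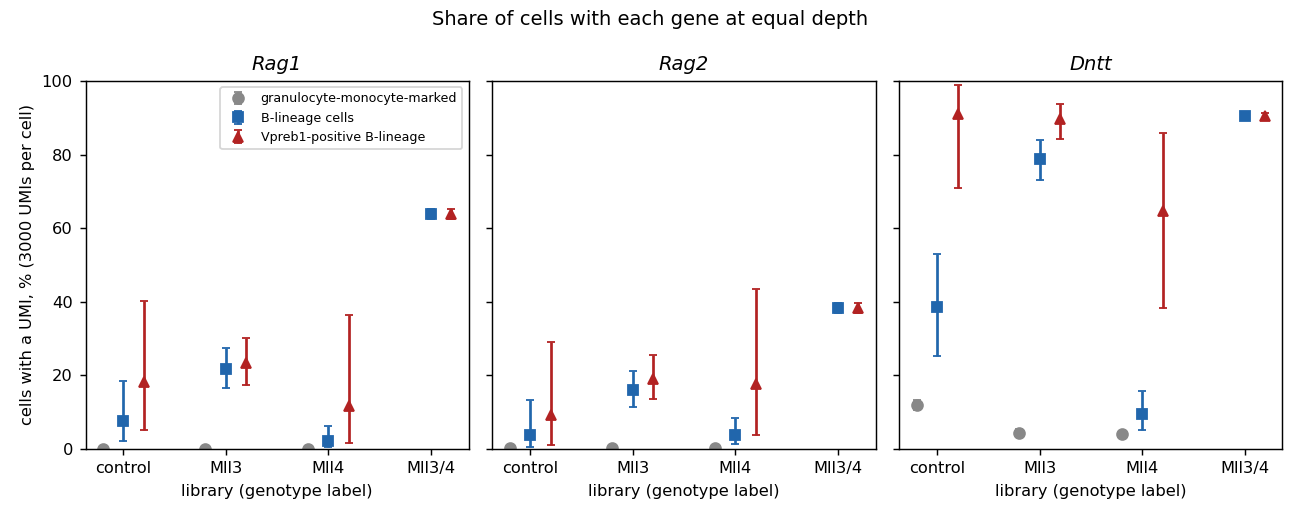
Share of cells with a UMI of Rag1, Rag2 or Dntt after thinning each cell to 3000 UMIs, for granulocyte-monocyte-marked cells (grey), B-lineage cells (blue) and Vpreb1-positive B-lineage cells (red) of the 4 libraries, with exact binomial 95% intervals. For Rag1 the Mll3/4-label library is at 63.9% and the Vpreb1-positive cells of the other libraries at 11.8% to 23.4%.

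The number of transcripts per cell also varied within the Mll3/4-label B-lineage cells. Rag1 had 0 UMIs in 589 cells, 1 in 664, 2 to 4 in 1730, 5 to 9 in 1268 and 10 or more in 471. The last group was 9.97% of the cells and held 31.4% of the Rag1 UMIs. Among cells with a UMI, the median was 4 for Rag1, 2 for Rag2 and 11 for Dntt, and the highest cell had 42, 13 and 124. In the Mll3-label B-lineage cells, which are deeper, these medians were 3, 2 and 28.

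Over all B-lineage cells, detection of all 3 members in the same cell was most frequent in the Mll3/4-label library. It was seen in 11 of 52 control (21.2%), 86 of 227 Mll3-label (37.9%), 10 of 136 Mll4-label (7.35%) and 3002 of 4722 Mll3/4-label (63.6%) B-lineage cells, without thinning. These shares depend on the mix of maturity, since 30 of the 52 control and 115 of the 136 Mll4-label cells were Jchain-high and held no Rag UMI. The 11 control cells all lay among its 22 Vpreb1-positive cells, because its other B-lineage cells had no UMI of any member. A Rag gene without Dntt was rare, with 0, 1, 3 and 40 cells. Dntt alone was found in 4, 35, 6 and 237. Rag1 without Rag2 was seen in 4, 38, 2 and 1105 cells, and Rag2 without Rag1 in 3, 40, 3 and 340. In thinned Mll3/4-label B-lineage cells, Rag1 and Rag2 were both found in 1294 cells where the product of their shares gives 1145, a ratio of 1.13. Rag1 with Dntt and Rag2 with Dntt were each at 1.02. The same ratios in the Mll3-label B-lineage cells were 1.80, 1.24 and 1.20. These are descriptions of cells that share a library, and the part of the mix of maturity in them was not tested.

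Outside the B-lineage cells both Rag genes were low, and their balance was another, while Dntt was well detected. Rag1 was at 0.279 CPM (33 UMIs) in the control, 1.41 (141) in the Mll3-label and 0.137 (16) in the Mll4-label library. Rag2 was at 1.21 (143 UMIs), 1.31 (131) and 0.721 (84), and Dntt at 101, 123 and 39.9. The Mll3-label library thus stood above the control for Rag1, at a log2 ratio of 2.32 (1.78 to 2.93), but for Rag2 the interval of the ratio included 0, at 0.11 (-0.24 to 0.46), and for Dntt it was at 0.28 (0.25 to 0.32). Among 6354 genes, 0.771% were 2-fold higher and 0.551% lower. In the Mll4-label library all 3 members were lower than in the control, at -1.0 (-1.99 to -0.12), -0.74 (-1.16 to -0.35) and -1.34 (-1.39 to -1.30). There 6.96% of 6554 genes were 2-fold higher and 3.71% lower.

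Rag1 UMIs per Rag2 UMI put the difference in balance into 1 value. Outside the B-lineage cells it was 0.231 (0.153 to 0.339) for the control, 1.08 (0.842 to 1.38) in the Mll3-label and 0.190 (0.104 to 0.328) in the Mll4-label library. Within B-lineage cells it was 1.75 (1.11 to 2.79), 1.91 (1.64 to 2.21) and 1.65 (1.10 to 2.51), and 2.71 (2.64 to 2.79) in the Mll3/4-label library. In each of the first 3 libraries the B-lineage interval lay above that of the other cells. The ratio compares the same genes between cells and is no ratio of their levels, since the capture of 3′ ends can differ between genes.

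The other cells with a Rag transcript were few and mostly held Dntt too. Rag1 was counted in 27 control, 66 Mll3-label and 11 Mll4-label other cells, of which 26, 62 and 9 had Dntt. Rag2 was counted in 108, 91 and 54, of which 94, 85 and 40 had Dntt, while Dntt was present in 18.3%, 13.4% and 10.4% of all other cells. Within 4 bins of depth, Rag1 with Rag2 was seen 15.4, 19.8 and 40.1 times as often as the product of the shares, from 8, 24 and 8 cells. For Rag2 with Dntt the ratio was 3.62, 6.21 and 5.33.

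Genes of early lymphoid cells were also frequent among the Rag1-positive other cells. These shares were counted without thinning or matching for depth, and the part of depth in them was not tested. Flt3, a cytokine receptor of lymphoid-primed progenitors, was present in 25 of 27, 60 of 66 and 9 of 11, against 44.4%, 32.1% and 23.0% of all other cells. The chromatin organiser Satb1 was present in 26 of 27, 62 of 66 and 8 of 11, against 30.2%, 26.4% and 35.4%. Il7r, the interleukin-7 receptor chain, was present in 11 of 27, 43 of 66 and 7 of 11, against 1.91%, 3.23% and 15.6%. Ebf1, a factor that specifies the B lineage, was present in 3 of 27, 34 of 66 and 7 of 11, against 0.249%, 1.21% and 1.27%. Igll1, the partner of Vpreb1 in the surrogate light chain, was in none. At least 2 UMIs of T-cell genes were found in 1, 7 and 0 of them, against 0.512%, 2.01% and 6.59% of all other cells, so that 10.6% of the Mll3-label ones had them. From Cd79a or Vpreb1, 1 or 2 UMIs, too few for the B-lineage rule, were found in 1, 15 and 1, against 3.25%, 4.53% and 2.96%.

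Surface protein sorted these other cells by all 3 members. Cells were put into 4 equal bins by the centred log ratio of each antibody signal. In the control, Dntt was at 10.4 CPM in the lowest bin of CD135 (the protein of Flt3) and 331 in the highest, and at 2.49 and 249 for CD48. It ran the other way for CD117 (Kit), from 309 to 8.65, for CD150, from 237 to 3.0, and for CD201, from 179 to 10.3. The Rag2 level went from 0.249 to 3.87 over CD135 and from 3.82 to 0.204 over CD117. For Rag1 in the Mll3-label library the values were 0.109 to 5.40 over CD135 and 5.64 to 0.0749 over CD117. Dntt in the Mll4-label library had the same direction over a narrower range, from 9.94 to 131 over CD135 and from 108 to 10.3 over CD117. Centred log ratios are relative to the other antibodies of the same cell, so the bins of different antibodies are not independent.

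**Figure D3:**
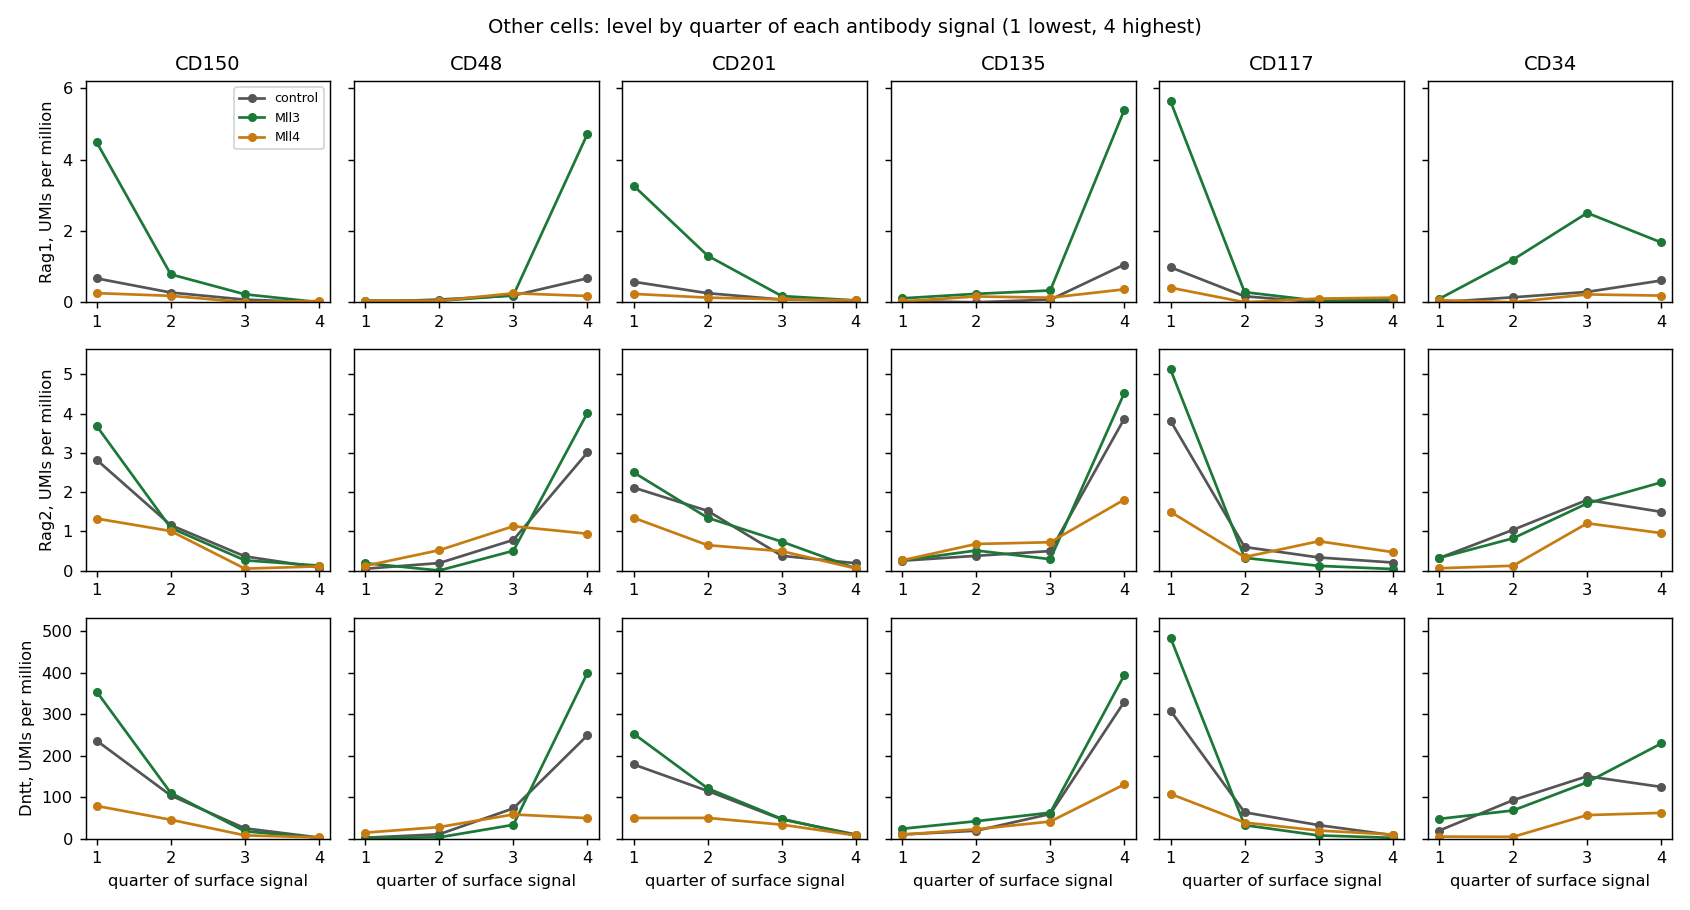
Level of Rag1, Rag2 and Dntt in CPM (rows) in other cells of the control, Mll3- and Mll4-label libraries, by bin of each of 6 antibody signals (columns; 1 is the lowest and 4 the highest bin). Control Dntt goes from 10.4 in the lowest to 331 in the highest CD135 bin and from 309 to 8.65 over CD117.

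Among B-lineage cells the same bins were compared in the Mll3/4- and Mll3-label libraries. In the Mll3/4-label cells Rag1 went from 379 to 411 CPM from the lowest to the highest CD135 bin, and was at 413 and 389 over CD117 and at 356 and 474 over CD150. In the Mll3-label cells Rag1 went from 43.3 to 159 over CD135, from 173 to 61.3 over CD117 and from 146 to 47.8 over CD150, a wider range for each. Rag2 was nearly level over CD135 in both, with 152 and 138 in the Mll3/4-label and 51.9 and 49.5 in the Mll3-label cells. Dntt went from 1438 to 1038 over CD135 in the Mll3/4-label cells and from 909 to 1342 in the Mll3-label cells, in opposite directions.

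Division-marked cells (at least 3 UMIs of Mki67 and Top2a) had lower levels of all 3 members in the Mll3/4-label B-lineage cells. The 1456 marked and 3266 other cells had Rag1 at 239 and 544 CPM, a log2 ratio of -1.19 (-1.23 to -1.14). Rag2 was at 120 and 173, a ratio of -0.52, and Dntt at 1038 and 1464, a ratio of -0.50. Rag1 was the member beyond 2-fold, and 2.12% of 6171 genes were 2-fold lower. After thinning, Rag1 was found in 45.4% of the marked and 72.2% of the other cells, Rag2 in 29.1% and 42.3%, and Dntt in 85.5% and 92.7%.

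Depth differs between these cells, with medians of 14684 and 7230 UMIs, and it moved with the members on its own. Over 4 equal bins of depth in the Mll3/4-label B-lineage cells, Rag1 went from 725 through 619 and 425 to 229 CPM, Rag2 from 246 to 108 and Dntt from 2019 to 905. At like depth, the shallowest marked bin (median 8612) was set beside the third bin of unmarked cells (median 8537.5). Rag1 was at 433 (410 to 457) and 577 (560 to 596), Rag2 at 172.6 and 172.8, and Dntt at 1622 and 1485. Rag1 was thus lower in marked cells at this depth too, while Rag2 was at nearly the same level and Dntt higher.

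**Figure D4:**
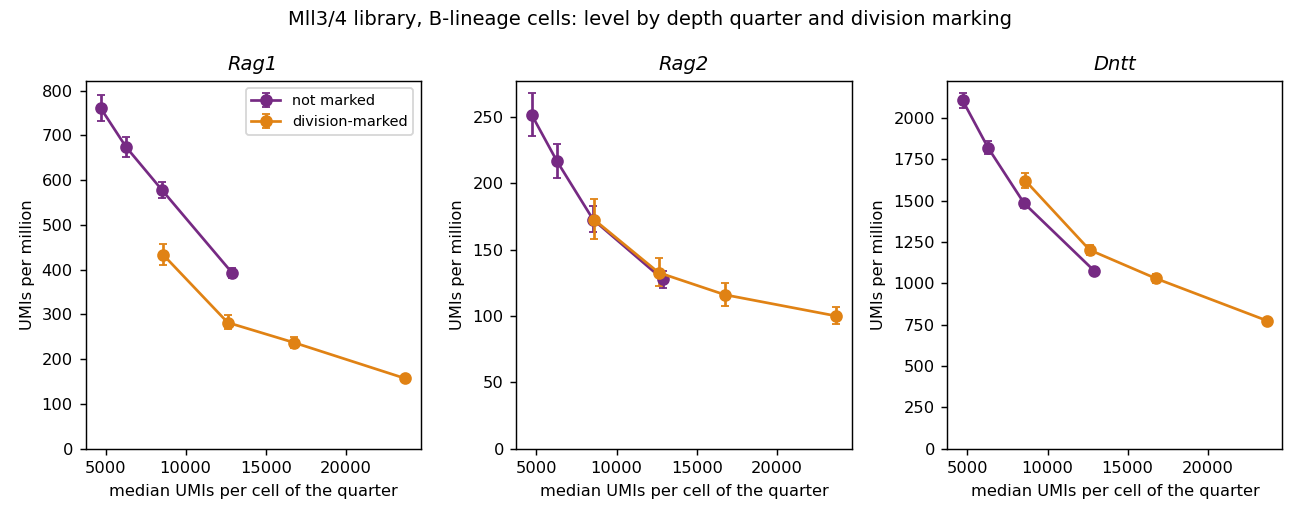
Level of Rag1, Rag2 and Dntt in CPM against the median UMIs per cell of 4 depth bins, for division-marked (orange) and unmarked (purple) B-lineage cells of the Mll3/4-label library, with exact Poisson 95% intervals. At median depths of 8612 and 8537.5 UMIs per cell, marked cells have Rag1 at 433 and unmarked cells at 577, while Rag2 is at 172.6 and 172.8.

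The other libraries held few unmarked Vpreb1-positive cells. In the Mll3-label library, 173 marked and 11 unmarked cells had Rag1 at 86.1 and 256 CPM, a log2 ratio of -1.59 (-2.05 to -1.05), with 14.9% of 6586 genes 2-fold lower. Rag2 was at 55.1 and 53.9, and Dntt at 1167 and 2425. The marked cells were deeper, with medians of 24178 and 12978 UMIs, and the unmarked ones held Igkc at 131610 and Jchain at 10082 CPM, against 1112 and 238. The part of depth and of these transcripts in the ratio was not tested. In the Mll4-label library 14 marked and 3 unmarked cells had Rag1 at 36.5 and 606. In the control, 17 and 5 cells had Rag1 at 83.8 and 252. Over all B-lineage cells of the Mll3-label library the direction was the opposite, with Rag1 at 97.5 in 187 marked and 49.3 in 40 other cells. Of those 40 cells, 11 had a Vpreb1 UMI.

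Cells of the Mll3/4-label library with and without a Rag1 UMI (4133 and 589 B-lineage cells) differed beyond 2-fold in few genes, with 0.386% of 5957 genes 2-fold higher and 0.386% 2-fold lower. Jchain was lowest in the Rag1-positive cells, at 1.16 against 731 CPM, a log2 ratio of -9.28. This ratio rests on 3 cells without Rag1, Rag2 or Dntt, which held 99.0% of the Jchain UMIs of the 4722 B-lineage cells. Next came 4 genes of S phase: Tyms (thymidylate synthase) at -1.16, Hist1h1b (a linker histone) at -1.13, Tk1 (thymidine kinase) at -1.06 and Ccne1 (cyclin E1) at -1.05. Rag1-positive cells were shallower, with a median of 8807 against 10360 UMIs, and with detection called after thinning these genes were at -1.28, -1.49, -1.43 and -1.07, where the medians were 7918 and 11740. The part of depth in these ratios was not tested. In the Mll3-label Vpreb1-positive cells the same genes were at -0.17, -0.29, -0.22 and 0.00. The highest were Ncam2 at 1.20, Btbd9 at 1.16, Tifa at 1.11, Slfn2 at 1.03 and Rag2 at 0.96, from 160 against 82.1 CPM. In the Mll3-label Vpreb1-positive cells Rag2 was at 0.92 and Tifa at 0.36. Slfn2 had the opposite sign there, at -1.13 (-1.93 to -0.37), and Btbd9 was at -0.48 (-1.02 to 0.08). Ncam2 could not be placed there, since its interval had no upper end. Of the listed B-cell genes, Il7r was at 0.64, Ebf1 at 0.41, the RAG activator Foxo1 at 0.39 and Pax5 at 0.28, and Dntt was at 0.44.

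With and without Rag2 (3368 and 1354 cells), 0.171% of 5845 genes were 2-fold higher and 0.0855% lower. The highest were genes of mitosis, namely Aspm at 1.20, Ube2c at 1.19, Ccnb1 (cyclin B1) at 1.11, Knstrn at 1.07 and Cenpa at 1.06. Rag2-positive cells were deeper, with a median of 9314.5 against 8043 UMIs. When detection was called after thinning, the same genes were at 0.36, 0.13, 0.19, 0.09 and 0.15. In the Mll3-label Vpreb1-positive cells they were at 0.50, 0.65, 0.66, 0.38 and 0.47 without thinning. Rag2-positive cells were deeper there too, with a median of 24340 against 22038 UMIs. In the Mll3/4-label cells Jchain was again lowest, at -8.66, through those 3 cells, and Rag1 was at 424 against 346 CPM. Dntt was missing in 52 cells, and there 2.07% of 6074 genes were 2-fold lower and 1.42% 2-fold higher than in the 4670 cells with it. The lowest log2 ratios of cells with over cells without Dntt were those of Jchain (-13.0, again through those 3 cells), Prg2 (-9.27), Ly6c2 (-7.40), Cd74 (-5.92) and Cd52 (-5.53), which are genes of other blood cells or of mature B cells. Rag1 was at 308 and Rag2 at 102 CPM in them, against 405 and 149.

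Among control cells outside the B lineage that had Dntt, 94 also had Rag2 and 1230 did not, and 0.622% of 6110 genes were 2-fold higher with it. Il7r had the highest ratio, at 52.2 against 4.31 CPM (3.60, and 2.17 in the Mll3-label library). Cmah at 2.76, Cox6a2 at 2.73, Arpp21 at 2.33 and Cnn3 at 1.86 followed, and in the Mll3-label library they were at 2.14, 2.18, 1.84 and 1.77. The lowest were the neutrophil genes S100a9 at -6.49 and S100a8 at -5.17. Apoe, Cd63 and the granule protease gene Prtn3 followed, at -1.72, -1.37 and -1.21. In the Mll3-label library S100a9 was at -1.05 (-4.45 to 0.60) and S100a8 at -0.51 (-3.93 to 1.19), with intervals that held both signs. Apoe, Cd63 and Prtn3 were at -0.66, -1.22 and -2.06 there. In the control, Rag2-positive cells had a median of 22462 UMIs and the rest 17636.

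The genes most like each member were found over 8 profiles, the B-lineage and other cells of the 4 libraries, by Pearson's correlation of log2(CPM + 1) among 7707 genes. Among the closest to Rag1 were Id3 (0.991), Rag2 (0.991), Desi1 (0.990) and Pde2a (0.990). Rag2 was closest to Gfra1 (0.995), Rag1 (0.991), 1700027J07Rik (0.986), Pde2a (0.984) and Id3 (0.983). Dntt had other nearest genes, namely Hdac7 (0.986), Uchl1 (0.980), Dusp7 (0.966), E2f2 (0.965) and Stambpl1 (0.961), and was at 0.904 with Rag1 and 0.884 with Rag2. The profiles share libraries and the B-lineage split, so these values are descriptions.

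The genes beside the Rag pair were measured in the same libraries. B230118H07Rik, on the same strand as Rag1, overlaps the whole 80 bp first exon of Rag1 and none of the 6528 bp second exon. Over all cells it was at 58.4, 64.4, 28.9 and 22.7 CPM in the 4 libraries and thus lowest where Rag1 was highest. Within B-lineage cells that order did not hold, with 8.41, 21.0 (17.4 to 25.1), 5.80 and 22.3 (21.1 to 23.7) CPM. There the Mll3- and Mll3/4-label libraries overlapped at the top. Traf6, a signalling adaptor, was at 13.9, 13.6, 11.5 and 13.4, and Commd9 at 25.4, 29.0, 18.2 and 19.8. Beside Dntt, Blnk, an adaptor of B-cell receptor signalling whose start site lies at -34740 bp from that of Dntt, was at 2.66, 17.9, 6.77 and 552, in the same rank order as Rag1 except that the Mll4-label library was above the control. Tm9sf3 was at 193, 196, 210 and 197, and Zfp518a at 27.9, 24.8, 24.7 and 33.4.

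**Figure D5:**
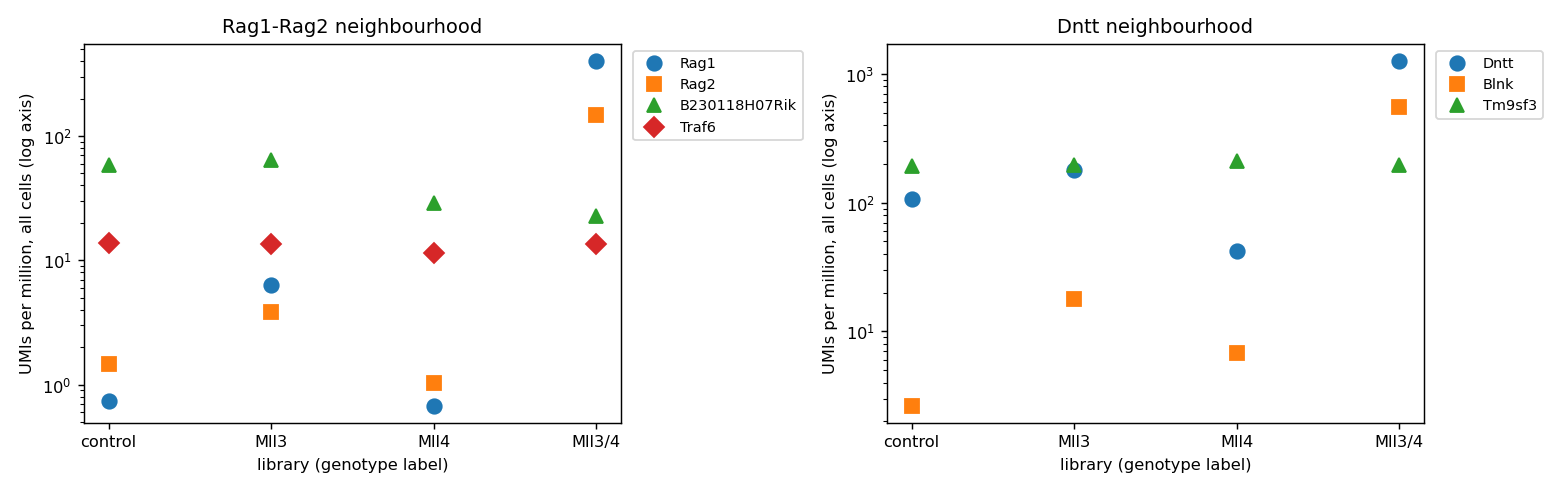
Level over all cells, in CPM (log axis), of Rag1, Rag2 and 2 of their neighbours (left) and of Dntt and 2 of its neighbours (right) in the 4 libraries. Rag1 goes from 0.746 in the control to 399 in the Mll3/4-label library while Traf6 stays between 11.5 and 13.9, and Blnk goes from 2.66 to 552.

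Genes that act with the members were taken from fixed lists and compared between Mll3/4- and Mll3-label B-lineage cells. The factors known to act on the Rag or Dntt genes had 6 of 13 measured members 2-fold higher and 1 lower, beside 13.1% and 9.23% of all genes, with a median log2 ratio of 0.77 against 0.02. A gene was measured if it had 20 CPM on either side, so that it may have entered through the side where it is high. Foxo1, an activator of both Rag genes, was at 56.2 and 548 CPM, a ratio of 3.28 (3.13 to 3.45), and Il7r, listed with the early B-cell genes, was at 146 and 1032, a ratio of 2.82. Ebf1 went from 615 to 1934 (1.65), and Pax5 from 117 to 289 (1.30). Lef1 was at 1.39, Ets1 at 1.30 and Ikzf1 (Ikaros) at 1.07. Tcf3, the gene of E2A, was lower, at 158 and 103 (-0.62), and Spi1, the myeloid factor PU.1, was the member beyond 2-fold lower, at 64.8 and 4.78 (-3.76). In Vpreb1-positive cells 6 were higher and 1 lower again, beside 11.3% and 12.3% of all genes, with a median of 0.71 against -0.10 over all genes.

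End-joining genes, whose proteins close the RAG cuts, differed less. Of 10 measured, 1 was 2-fold higher and 0 were lower, a share near the 13.1% and 9.23% of all genes, with a median of 0.20. The higher gene was Lig4 (DNA ligase IV), at 8.77 and 23.5 CPM, a ratio of 1.41 (1.02 to 1.86), and it entered through its level in the Mll3/4-label cells. Xrcc4, its partner, was at 0.79, Prkdc, the DNA-dependent protein kinase, at 0.34, Xrcc5 and Xrcc6 (the Ku subunits) at 0.20 and -0.28. Hmgb1 and Hmgb2, DNA-bending proteins that assist RAG binding, were at -0.63 and -0.86. In Vpreb1-positive cells 1 was higher and 1, Hmgb2 at -1.11, was lower.

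The early B-cell list had 9 of 15 measured genes 2-fold higher and 2 lower, beside 13.1% and 9.23% of all genes, with a median of 1.18. Ebf1, Pax5 and Lef1 are in this list and in that of the factors. Vpreb3 was at 1.28, Pou2af1 at 1.18 and Igll1 at 0.91. Vpreb2, a further surrogate light chain gene, was at 172 CPM in the Mll3-label and 0.618 in the Mll3/4-label cells, a ratio of -8.10, and Bst1 was at -3.43. Vpreb1 is a near copy of Vpreb2 and can share reads with it, so the Vpreb2 value is uncertain. Of 12 measured genes of lymphoid priming, a list that holds the 3 members themselves, 3 were higher and 3 lower, beside the same shares of all genes, with a median of -0.29. The higher ones were Il7r, Rag1 and Rag2. Among the lower ones were Notch1 at 36.1 and 2.15 CPM (-4.06) and Cd27 at -3.40. In Vpreb1-positive cells the early B-cell genes were split 7 higher and 2 lower, and the lymphoid priming genes 3 and 3.

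Over all cells against the control, most early B-cell genes compared with the Mll3/4-label library reached 20 CPM only there, so that no count is given for this list. End-joining genes had 1 higher and 1 lower of 10 in the Mll3/4-label library, beside 9.23% and 10.9% of all genes. They had 0 and 0 of 9 in the Mll3-label library, beside 0.838% and 0.459%, and 0 and 2 of 9 in the Mll4-label library, beside 6.88% and 3.82%. T cells also use the Rag genes and Dntt, and 11 of their markers summed to 58.8, 30.6, 13.6 and 31.5 CPM in the Vpreb1-positive cells of the 4 libraries, against 50.3, 120, 62.1 and 42.8 in the other cells. Lck, a kinase of T-cell receptor signalling, led in the control at 44.6, in the Mll3-label library at 18.0 and in the Mll4-label library at 6.78, and Gata3, a T-cell factor, in the Mll3/4-label library at 29.5. Of the receptor chains, Cd3e and Cd3g were at 0 in the Vpreb1-positive cells of all 4 libraries. Cd3d, Trbc1, Trbc2 and Ptcra were counted in these cells in some libraries, at no more than 3.43 CPM (Trbc2, Mll3-label). Stem cell markers summed to 87.3, 115, 97.6 and 119 in the Vpreb1-positive cells, against 710, 826, 397 and 460 in the other cells.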

How the data were processed

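Single-cell RNA and surface-protein counts were analysed in 4 mouse LSK libraries, 1 per genotype label, grouped by sample title. The deposited values were raw counts of UMIs and antibody tags per barcode. Per the labels' protocols they came from the 10x Genomics 3′ chemistry with feature barcodes, and per the file headers from Cell Ranger 6.1.1. The submitters' processing notes name Cell Ranger 6.1.1 and mm10. Of the 32285 gene identifiers, 32158 (99.6%) matched GENCODE M21.

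UMIs were summed per library and cell class and scaled to counts per 1000000 (CPM). Intervals are exact Poisson for sums, Clopper-Pearson for shares and conditional binomial for ratios after adding 0.5 UMIs, all at 95%. They cover counting error only, since 1 library per genotype allows no test. A gene entered a comparison at 20 CPM or more on 1 side and was called beyond 2-fold. Doublets were not removed in the values reported. Scrublet's own threshold marked 3, 3, 171 and 1 cells and was not used. Removing its 423, 298, 184 and 180 highest scores was an alternative.

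The members and lists were chosen with earlier results of these data known. Named genes were the members, the list genes, the 5 nearest genes per member, and the 5 highest and 5 lowest ratios among genes at 50 CPM or more between cells with and without a member, leaving out mitochondrial, ribosomal protein, haemoglobin, receptor segment, sex-linked and unnamed genes. Some genes that the rule names are not reported here. Neighbouring genes within 250 kb of Rag1 or Dntt were described, and those named were picked after their values were seen. Restriction to Vpreb1-positive cells, matched depth, depth bins within division classes, the mark of 100 UMIs and detection after thinning were chosen after seeing the data. Tools were Python 3.11.15, numpy 2.4.6, scipy 1.17.1, pandas 2.3.3, scanpy 1.11.5, R 4.3.3 and edgeR 4.0.16 (TMM factors only). The calculation was tested on simulated data.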

Additional observations from a re-analysis of the deposited data

How the results depend on the processing

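No paired analysis was possible because there was 1 library per genotype. Recomputed levels, ratios and shares were called the same when they stayed within counting error of the reported value, and moved when they did not. Gene counts from the lists have no such interval and were called the same when equal or near in size (19 the same, 5 moved). Of all 291 recomputed values, 181 were called the same, 109 moved and 1 reversed. That one was Dntt in Vpreb1-positive Mll3/4- over Mll3-label cells within the same depth window, at -0.56, where Rag1 was at 1.18 and Rag2 at 1.02. The causes of these shifts were not tested beyond the construction of each alternative.

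Against the control over all cells, equal weight per cell gave 0.46 for Rag1 in the Mll4-label library, so that its sign is not settled, and stricter cell filters gave -0.66. In the Mll3/4-label library these 2 alternatives gave 9.68 and 8.64 for Rag1, 7.21 and 6.42 for Rag2, and 3.99 and 3.35 for Dntt. Dntt in the Mll3/4-label library was at 3.64 with TMM scaling, 3.67 with median-of-ratios, 3.50 without mitochondrial and ribosomal protein genes and 3.51 after doublet removal. In the Mll3-label library Dntt was at 0.65 with both scalings, 0.66 without those genes, 0.81 with equal weight and 0.71 after doublet removal. In the Mll4-label library it was at -1.38 without those genes and with stricter filters, and -1.40 with equal weight.

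For the Mll3/4- over Mll3-label ratio in B-lineage cells, a class rule of 1 UMI gave 2.98 for Rag1, 2.43 for Rag2 and 0.83 for Dntt. Rag2 was at 1.41 with the rule of 3 UMIs applied after thinning and 1.43 in Vpreb1-positive cells. Dntt was at 0.29 with a rule of 10 UMIs, 0.23 with stricter filters, 0.10 without doublets and 0.075 in Vpreb1-positive cells. For B-lineage over other cells, the rule of 1 UMI gave Rag1 at 5.25 in the control and 5.53 in the Mll3-label, Rag2 at 3.16, 4.64 and 2.72, and Dntt at 1.74, 2.61 and 0.72 in the control, Mll3- and Mll4-label libraries. The rule of 10 UMIs gave Rag1 at 5.24 and Dntt at 2.96 in the Mll3-label and Rag2 at 4.35 in the Mll4-label library. Vpreb1-positive cells gave Rag1 at 8.66 and 9.11 and Rag2 at 5.76 and 5.88 in the control and Mll4-label, and Dntt at 3.74, 3.29 and 3.68 in the control, Mll3- and Mll4-label libraries. For Dntt in those 3, stricter filters gave 2.33, 2.95 and 1.22, and doublet removal 2.61, 3.24 and 1.63.

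Shares of B-lineage cells depend on depth. Thinning to 1500 UMIs, to 6000 and no thinning gave Rag1 in 45.4%, 75.5% and 87.5% of the Mll3/4-label and 15.0%, 29.0% and 55.1% of the Mll3-label cells. For Rag2 these were 22.9%, 54.3% and 71.3%, and 7.93%, 21.4% and 55.9%. For Dntt they were 79.0%, 96.1% and 98.9%, and 69.6%, 85.7% and 87.7%. Without thinning, Rag1 was at 28.8% and 8.82% and Rag2 at 26.9% and 9.56% in the control and Mll4-label cells. At 1500 UMIs the Mll4-label cells were at 0.735% for Rag2 and 5.15% for Dntt. The rule of 1 UMI gave 1.39% (Rag1) and 18.5% (Dntt) in the control, and 11.2%, 8.54% and 43.5% for Rag1, Rag2 and Dntt in the Mll3-label library. The rule of 3 UMIs after thinning gave 19.0% (Rag1) and 71.4% (Dntt) in the control, 86.3% (Dntt) in the Mll3-label, and 14.3%, 14.3% and 28.6% in the Mll4-label library. Vpreb1-positive cells gave Dntt at 90.9%, 89.7% and 64.7% in the first 3 libraries, and Rag1 at 11.8% and Rag2 at 17.6% in the Mll4-label one.

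Co-detection of Rag1 and Rag2 in Mll3/4-label B-lineage cells was at 1.03 both without thinning and within depth bins. Rag2 with Dntt in other cells was at 4.75 without thinning and 3.62 within depth bins in the control, and 6.21 within bins in the Mll3-label library. The division ratio of Rag1 was -0.88 with the division mark set at 1 UMI and -1.27 with 3 UMIs after thinning, that of Rag2 -0.45 after thinning and that of Dntt -0.40 with 1 UMI. At a minimum of 100 CPM, 0 end-joining genes were higher, 1 early B-cell gene was lower, and 0 Rag regulators and 0 lymphoid priming genes were lower. In Vpreb1-positive cells 1 end-joining gene was lower.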
